A study of Macaca mulatta with 449 samples.

Results

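The globus pallidus (GP) was compared with the striatum in 8 rhesus macaques (Macaca mulatta), from total RNA freed of ribosomal RNA before sequencing. Samples were chosen by their labelled sub-region alone. The 8 GP samples, 1 from each animal, were set against the accumbens nucleus (ACb), the caudate nucleus (CN) and the putamen (PUT) of the same animals, and the counts of these 3 sub-regions were summed within each animal as its striatum. The comparison therefore held 32 of the 408 samples of the count table, in a series of 449 samples. Rhesus 2, 3, 7 and 8 were male and Rhesus 4, 6, 10 and 11 were female. Rhesus 4, 7, 8 and 10 were young (3.2 to 5 years) and Rhesus 2, 3, 6 and 11 were mid-aged (9.8 to 10 years), and the labels name no treatment or genotype for any of them. The tissue was dissected by hand and the labels do not divide the GP into its external and internal segments, so a GP sample can hold both, together with the fibre tracts that cross them. The 8 corpus callosum samples of the same animals, a tract of myelinated fibres, served as a second comparison, because the GP is also rich in myelin.

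The striatum and the GP follow each other in the basal ganglia. Nearly all striatal neurons are GABAergic medium spiny neurons. Those of the direct pathway carry the dopamine receptor D1 and the peptides substance P and dynorphin, and those of the indirect pathway carry the dopamine receptor D2, an adenosine receptor and enkephalin. The former send their axons to the internal pallidum and the nigra and the latter to the external pallidum, so their terminals, but not their cell bodies, lie in the GP. Pallidal neurons are fewer, large, spontaneously firing and also GABAergic. Many of them contain parvalbumin, and they lie among myelinated bundles in a tissue known for its iron content.

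Levels are given as CPM, the read counts of a gene scaled to a common total with TMM-adjusted library sizes. The total count lay between 8901320 and 20271150 in the GP samples (median 10787153) and between 26280694 and 34235662 in the summed striata (median 30622226). Differences are log2 fold changes (log2FC) of GP over striatum with the standard error (SE) after the ± sign, from a model that paired the tissues of each animal. Genes past a false discovery rate (FDR) of 0.05 with more than a 2-fold difference were called.

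3 GP samples stood apart from the other 5. The GP of Rhesus 3 held transcripts of striatal projection neurons. Over the 28 such genes that were called lower in GP, the median level in this sample was 18.8% of that in the striatum of the same animal. It was 2.55% to 5.6% in the other 7 animals, and Rhesus 3 was the highest of the 8 for 26 of the 28. Choosing genes by that call favours low levels in GP, so only the difference between animals is read here. The GP samples of Rhesus 2 and 4 differed in another way. Of 10021 genes with a mean of at least 10 CPM in GP, 521 in Rhesus 2 and 742 in Rhesus 4 lay more than 2-fold below the median of the 8 samples, against 27 to 68 in the other 6. In the striatum the corresponding counts were 17 to 51 of 10112 genes. The corpus callosum was less even, with 347 of 9745 genes in Rhesus 8, 123 in Rhesus 7 and 26 to 107 in the other animals. SCN8A, a neuronal sodium channel gene, shows the pattern of the GP samples. It was at 2.66 CPM in Rhesus 2, 2.43 CPM in Rhesus 4 and 13.4 CPM in Rhesus 3, against 23.6 to 27.9 CPM in the other 5. The labels give no reason for this, and its part in any result was not tested. Where leaving out Rhesus 3, Rhesus 2 and 4, or all 3 changed the call against striatum of a gene named below, such a change is stated beside it. Calls of single genes against corpus callosum are given for all 8 animals only.

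The 2 markers set for the comparison fitted the labels. SDS, the gene of serine dehydratase and the marker of the GP, lay at 29.002 to 73.6 CPM in GP with a median of 40.6 and 9.19 to 26.97 CPM in striatum with a median of 19.3, higher in GP in 8 of 8 animals (log2FC 1.30 ± 0.10, FDR = 4.93e-07). The groups did not overlap. ADORA2A, the adenosine receptor gene of the indirect pathway, lay at 4.35 to 55.8 CPM in GP with a median of 8.09 and 326 to 523 CPM in striatum with a median of 443, and the highest GP value was that of Rhesus 3 (55.8 CPM), while the other 7 were at most 14.7 CPM (log2FC -5.40 ± 0.42, FDR = 4.1e-07).

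Of 15683 genes tested, 2062 (13.1%) were called higher in GP and 2460 (15.7%) higher in striatum. These shares of all genes are the background of each list count against striatum below. The differences were larger on the striatal side, where 467 genes differed by more than 8-fold, against 48 on the pallidal side. The groups of 8 did not overlap for 1410 of the genes higher in GP and 1937 of those higher in striatum. The call itself favours groups that lie apart, and the number over all genes tested is not given. These 2 numbers therefore cannot be read as a trait of the called genes. Without Rhesus 3 the counts of called genes were 2082 and 2557, and without Rhesus 2, 3 and 4 they were 2081 and 2547. The median log2FC of all genes tested was 0.01.

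Genes of striatal projection neurons were lower in GP almost throughout. Among the signalling and identity genes that both pathways share, 16 of 18 tested were lower, none was higher, and the median log2FC was -3.79. PPP1R1B, which encodes the dopamine-regulated phosphatase inhibitor DARPP-32, lay at 182 to 405 CPM in GP with a median of 199 and 1851 to 2521 CPM in striatum with a median of 2283 (log2FC -3.35 ± 0.16, FDR = 1.75e-08). ARPP21, another phosphoprotein regulated by cyclic AMP, lay at 76.1 to 925 CPM in GP with a median of 206 and 3482 to 4808 CPM in striatum with a median of 3992 (log2FC -4.17 ± 0.34, FDR = 6.98e-07). PDE10A, the phosphodiesterase of these neurons, lay at 0.362 to 20.4 CPM in GP with a median of 3.21 and 95.1 to 473 CPM in striatum with a median of 259.5 (log2FC -6.01 ± 0.59, FDR = 2.92e-06). In all 3 genes the groups were far apart, and Rhesus 3 was the highest GP sample. PDE1B (log2FC -5.45 ± 0.45), RGS9 (-3.90 ± 0.15), PTPN5 (-4.35 ± 0.24) and ADCY5 (-2.91 ± 0.15), which act in cyclic nucleotide, G protein and tyrosine phosphatase signalling, were also lower. STRN, which encodes striatin, and SYNPO2 were not called (log2FC 0.05 ± 0.21 and 0.65 ± 0.21). In bulk tissue, fewer cells of a type and less RNA per cell cannot be told apart.

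Genes of each pathway were lower in GP. For the direct pathway, 6 of 7 genes were lower (median log2FC -4.92), and for the indirect pathway 6 of 6 (median -5.16). The dopamine receptor gene DRD1 lay at 1.65 to 63.2 CPM in GP with a median of 6.68 and 373 to 570.0 CPM in striatum with a median of 465 (log2FC -5.80 ± 0.48, FDR = 6.86e-07). PDYN, the precursor of dynorphin, lay at 1.33 to 83.5 CPM in GP with a median of 5.50 and 430.1 to 749 CPM in striatum with a median of 563 (log2FC -6.23 ± 0.53, FDR = 9.69e-07). TAC1, the precursor of substance P, lay at 5.92 to 93.3 CPM in GP with a median of 13.5 and 436 to 594 CPM in striatum with a median of 543 (log2FC -4.92 ± 0.37, FDR = 3.78e-07). In each of these 3 genes the highest GP sample was Rhesus 3. The peptides are stored in terminals within the pallidum, but their mRNA was a small part of its striatal level. On the indirect side, DRD2 lay at 3.38 to 42.9 CPM in GP with a median of 8.17 and 216 to 359 CPM in striatum with a median of 278 (log2FC -4.92 ± 0.38, FDR = 4.44e-07). PENK, the precursor of enkephalin, lay at 9.14 to 269 CPM in GP with a median of 23.02 and 1517 to 2183 CPM in striatum with a median of 1702 (log2FC -6.13 ± 0.54, FDR = 1.24e-06). GPR6, an orphan receptor of indirect pathway neurons, lay at 0.0785 to 16.5 CPM in GP with a median of 0.612 and 95.99 to 154 CPM in striatum with a median of 110.4 (log2FC -6.33 ± 0.59, FDR = 2.02e-06). The groups did not overlap for any of these 6 genes. Without Rhesus 3 the highest GP values fell from 269 to 42.5 CPM for PENK, from 83.5 to 11.9 CPM for PDYN and from 63.2 to 14.2 CPM for DRD1. The log2FC then were -6.52, -6.66 and -6.22. EBF1 and GRIK3 were the weakest called members (log2FC -1.03 ± 0.19 and -1.12 ± 0.19), and neither reached a 2-fold difference without Rhesus 2, 3 and 4.

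**Figure D1:**
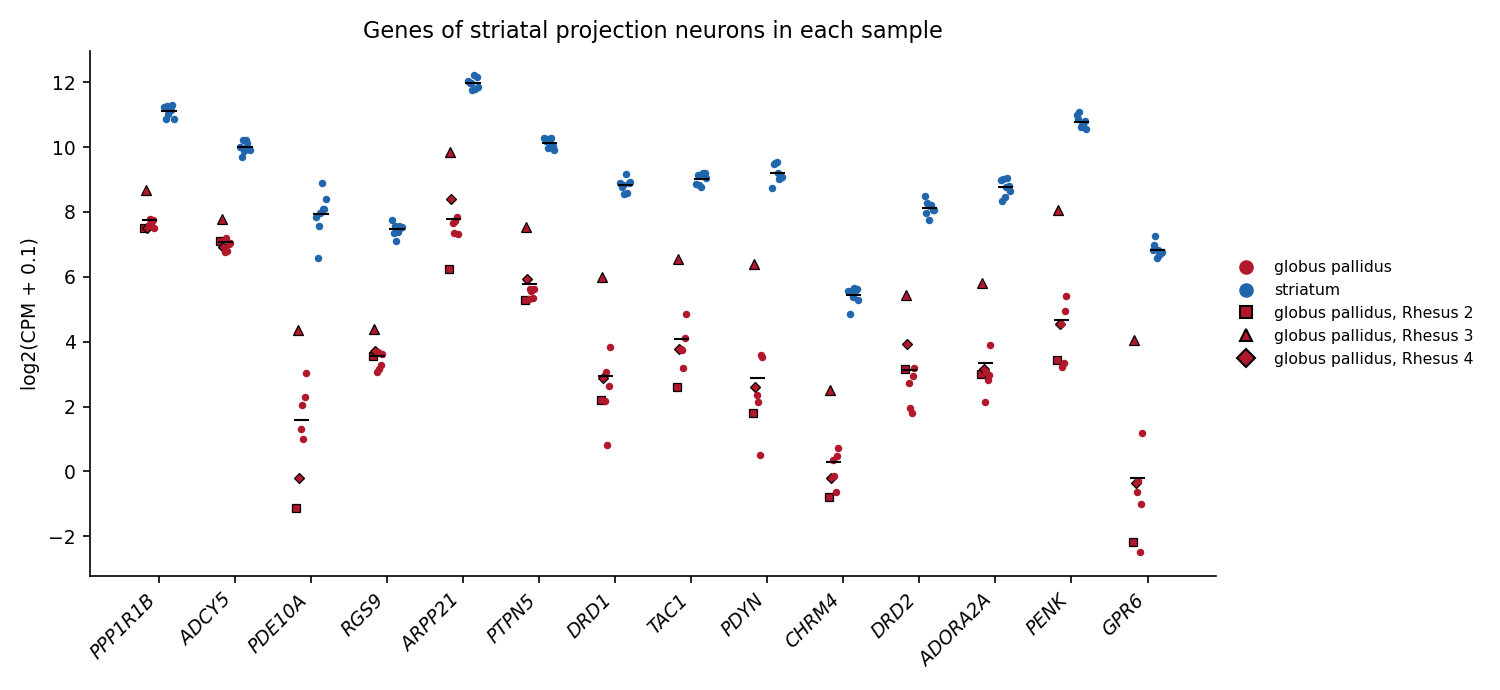
Level of 14 genes of striatal projection neurons in each sample, as log2(CPM + 0.1) on the vertical axis, in globus pallidus (red) and striatum (blue), with bars at the mean of the 8 log values and GP symbols that mark Rhesus 2 (square), 3 (triangle) and 4 (diamond). The groups do not overlap for any of the 14 genes, and the triangle is the highest GP value in each.

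Among the 12 named genes with the largest differences on the striatal side, GPR6, PDYN, PENK, PDE10A and DRD1 belong to the lists above and the other 7 do not. CA12, a carbonic anhydrase of the cell surface, lay at 1.26 to 75.2 CPM in GP with a median of 4.97 and 443 to 660.1 CPM in striatum with a median of 495 (log2FC -6.42 ± 0.59, FDR = 1.66e-06). ANO3, an anoctamin of the membrane, lay at 11.1 to 241 CPM in GP with a median of 19.03 and 1287 to 2049 CPM in striatum with a median of 1669.8 (log2FC -6.08 ± 0.55, FDR = 1.42e-06). ICAM5, an adhesion molecule of telencephalic dendrites, lay at 0.634 to 19.6 CPM in GP with a median of 1.88 and 142 to 199 CPM in striatum with a median of 148 (log2FC -5.76 ± 0.46, FDR = 5.65e-07). PKHD1, the gene of fibrocystin (log2FC -5.87 ± 0.49), C4H6orf141 (-5.95 ± 0.42) and RHAG, known as an Rh-associated glycoprotein of red cells (-5.82 ± 0.57), had the same pattern. RHAG lay at 0 to 1.65 CPM in GP with a median of 0 and 7.15 to 21.2 CPM in striatum with a median of 11.6. In these 6 genes Rhesus 3 was again the highest GP sample. CROCC2, which is related to a protein of the ciliary rootlet, differed most, with at most 3 counts in any GP sample. It had 7 counts over the 8 GP samples and 1806 over the 8 striata, a 103-fold difference in CPM with a 95% interval of 49.8 to 256 that covers counting error only.

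Ion channels and synaptic genes of spiny neurons followed. Of 9 potassium channel genes of these neurons, 8 were lower in GP (median log2FC -3.64). KCNA4, an A-type channel, lay at 1.65 to 46.6 CPM in GP with a median of 5.06 and 227 to 338 CPM in striatum with a median of 302 (log2FC -5.45 ± 0.45, FDR = 7.49e-07), and KCNJ4, an inward rectifier, at 0.549 to 9.56 CPM in GP with a median of 3.17 and 68.9 to 107 CPM in striatum with a median of 80.98 (log2FC -4.64 ± 0.31, FDR = 1.29e-07). KCNJ2, another inward rectifier, went the other way, at 162 to 241 CPM in GP with a median of 199.8, 59.7 to 78.5 CPM in striatum with a median of 71.1 and 306 to 453 CPM in corpus callosum with a median of 378 (log2FC 1.52 ± 0.07, FDR = 1.09e-08). Its highest level was in the myelin-rich corpus callosum. Of 13 genes of the postsynaptic density, 12 were lower (median -2.71). CAMK2A, the alpha subunit of calcium/calmodulin kinase II, lay at 13.97 to 122 CPM in GP with a median of 30.8 and 724 to 1119.8 CPM in striatum with a median of 904 (log2FC -4.85 ± 0.36, FDR = 3.31e-07). DLG4, the scaffold PSD-95, lay at 60.5 to 176 CPM in GP with a median of 101 and 547 to 705 CPM in striatum with a median of 643 (log2FC -2.63 ± 0.16, FDR = 5.44e-08). SHANK1, another scaffold, was the member not called (log2FC -0.45 ± 0.10).

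Receptors for the transmitters that reach or leave the striatum were mostly lower, 12 of 14 (median log2FC -3.65), against 15.7% of all genes. DRD1, DRD2 and CHRM4 are counted here and among the pathway genes above. Other lower receptors were the opioid receptors OPRM1 (-3.57 ± 0.38) and OPRK1 (-3.72 ± 0.41), the tachykinin receptor TACR1 (-3.01 ± 0.25), the cannabinoid receptor CNR1 (-4.10 ± 0.37) and the dopamine receptor DRD3 (-5.34 ± 0.55). The muscarinic receptors did not move together. CHRM1 and CHRM4 were lower in GP (log2FC -4.98 ± 0.32 and -4.96 ± 0.39). CHRM2 lay at 5.39 to 38.2 CPM in GP with a median of 21.6 and 8.74 to 13.3 CPM in striatum with a median of 11.7 and was not called (log2FC 0.73 ± 0.32, FDR = 0.0601). Without Rhesus 2, 3 and 4 it was called higher in GP (log2FC 1.34, FDR = 5.56e-05).

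Transcription factors tied to the embryonic source of striatal neurons were mostly lower in GP. Those tied to the source of pallidal neurons were mostly not called, as were most genes tested. Of 12 factors of neurons that derive from the lateral ganglionic eminence, the source of spiny neurons, 8 were lower in GP. The share of all genes was 15.7%. EBF1 and SP9 are counted here and among the pathway genes above. BCL11B (CTIP2), which spiny neurons need to differentiate, lay at 0 to 1.98 CPM in GP with a median of 1.07 and 21.7 to 40.7 CPM in striatum with a median of 34.7 (log2FC -5.05 ± 0.28, FDR = 3.3e-08). SIX3 (-3.13 ± 0.20), MEIS2 (-2.74 ± 0.14) and FOXP1 (-2.18 ± 0.20) were lower as well, while FOXP2 was below 2-fold (-0.67 ± 0.12). SP8 was called higher in GP (2.54 ± 0.50). Of 9 factors tied to the medial eminence, a source of pallidal neurons and interneurons, 1 was higher, 2 were lower and 6 were not called. Of all 15683 genes tested, 11161 were not called. GBX1 was called higher in GP (log2FC 1.34 ± 0.44), but not without Rhesus 2, 3 and 4 (0.78). NKX2-1, which specifies this eminence, lay at 0.362 to 3.71 CPM in GP with a median of 2.81 and 0.911 to 2.42 CPM in striatum with a median of 1.65 and was not called (log2FC 0.50 ± 0.30). LHX6 lay at 4.80 to 27.3 CPM in GP with a median of 7.57 and 21.9 to 26.2 CPM in striatum with a median of 23.1 and was called lower in GP (log2FC -1.30 ± 0.29, FDR = 0.00163), although Rhesus 3 and 4 were at 24.7 and 27.3 CPM and overlapped with the striatum.

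Interneuron and cholinergic genes were mostly lower in GP. Of 10 interneuron genes 8 were lower, against 15.7% of all genes, among them NOS1 (log2FC -3.44 ± 0.36) and PTHLH (-4.24 ± 0.34). The 1 called higher was PVALB (log2FC 4.74), which is also on the pallidal neuron list below. CHAT is counted in both the interneuron and the cholinergic list, and ISL1 in both the direct pathway and the cholinergic list. NPY, which encodes neuropeptide Y, lay at 0.314 to 32.3 CPM in GP with a median of 4.54 and 88.5 to 150.3 CPM in striatum with a median of 103 (log2FC -4.60 ± 0.53, FDR = 1.17e-05). SST, which encodes somatostatin, lay at 2.44 to 85.8 CPM in GP with a median of 7.94 and 64.8 to 163 CPM in striatum with a median of 85.5 (log2FC -2.66 ± 0.42, FDR = 0.00014), with Rhesus 3, 4 and 6 at 85.8, 52.1 and 39.8 CPM in GP and the other 5 at most 8.26 CPM. Of 7 cholinergic genes 4 were lower and 2 higher, and without Rhesus 2, 3 and 4 these counts were 5 and 1. Over the 8 animals, 15.7% of all genes were lower and 13.1% higher. CHAT, which makes acetylcholine, lay at 0 to 5.17 CPM in GP with a median of 0.987 and 2.36 to 9.17 CPM in striatum with a median of 5.42 (log2FC -1.95 ± 0.37, FDR = 0.00056). NGFR, the p75 neurotrophin receptor of basal forebrain cholinergic neurons, lay at 2.44 to 58.7 CPM in GP with a median of 7.42 and 0.585 to 3.13 CPM in striatum with a median of 1.50 (log2FC 2.68 ± 0.61, FDR = 0.0021). Its levels in GP varied widely, from 2.44 CPM in Rhesus 7 to 27.97 CPM in Rhesus 4 and 58.7 CPM in Rhesus 6, which also had the highest CHAT. Of the 10 immediate early genes tested, 9 were lower in GP (median log2FC -2.97), against 15.7% of all genes. These genes respond to neuronal activity and to handling of the tissue. EGR2 lay at 0 to 3.52 CPM in GP with a median of 0.555 and 15.1 to 36.8 CPM in striatum with a median of 25.4 (log2FC -5.21 ± 0.36, FDR = 1.84e-07), and ARC was lower too (-3.50 ± 0.32). NR4A2 was called higher (1.20 ± 0.27), but not with Rhesus 2 and 4 left out (0.93) or against putamen alone (0.99).

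PVALB was the gene of the pallidal neuron list with the largest difference. It encodes parvalbumin, a calcium buffer of fast-spiking neurons, and lay at 18.03 to 119 CPM in GP with a median of 80.4, 1.46 to 4.43 CPM in striatum with a median of 2.79 and 0.442 to 3.12 CPM in corpus callosum with a median of 0.961 (log2FC 4.74 ± 0.23, FDR = 1.47e-08). The groups did not overlap, and Rhesus 3 was the lowest GP sample. Of 14 genes listed for pallidal neurons, 4 were higher, 3 lower and 7 not called. Of all genes, 13.1% were higher and 15.7% lower. The factor NPAS1, which marks a class of pallidal neurons, lay at 2.50 to 11.5 CPM in GP with a median of 4.72 and 0.334 to 1.39 CPM in striatum with a median of 0.897 (log2FC 2.58 ± 0.28, FDR = 6.72e-06). SPP1, which encodes osteopontin, lay at 991 to 2015 CPM in GP with a median of 1621, 210.2 to 348 CPM in striatum with a median of 287 and 1257 to 2298 CPM in corpus callosum with a median of 1729 (log2FC 2.50 ± 0.10, FDR = 5.83e-09). Its level in GP did not differ from that in corpus callosum past the threshold (log2FC -0.09 ± 0.13). NDNF, a secreted factor, was the fourth member called higher (1.91 ± 0.24).

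The genes that make and load GABA, which the neurons of both nuclei use, did not all differ. GAD1, an enzyme of GABA synthesis, lay at 171 to 470.2 CPM in GP with a median of 387 and 316 to 433 CPM in striatum with a median of 376 and was not called (log2FC -0.08 ± 0.13, FDR = 0.589). GAD2, the other enzyme, lay at 133 to 449 CPM in GP with a median of 337 and 814 to 1156 CPM in striatum with a median of 988 (log2FC -1.60 ± 0.17, FDR = 6.32e-06). SLC32A1, the vesicular GABA transporter, lay at 20.6 to 101 CPM in GP with a median of 79.7 and 192 to 260.1 CPM in striatum with a median of 219 (log2FC -1.70 ± 0.20, FDR = 1.3e-05). Against corpus callosum all 3 were called higher in GP, with a log2FC of 3.90 ± 0.26, 4.13 ± 0.26 and 3.83 ± 0.31.

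The other named genes higher in GP came from many functions. ASAH2, a neutral ceramidase, lay at 0.659 to 20.9 CPM in GP with a median of 11.003 and 0.0319 to 0.226 CPM in striatum with a median of 0.113 (log2FC 6.07 ± 0.59, FDR = 2.63e-06), with Rhesus 2, 3 and 4 at 1.81, 0.659 and 0.971 CPM and the other 5 at 10.2 CPM or more. Without these 3 animals its log2FC was 7.09. CTXN3, a cortexin, lay at 1.54 to 16.8 CPM in GP with a median of 3.73 and 0.0296 to 0.256 CPM in striatum with a median of 0.0835 (log2FC 5.44 ± 0.43, FDR = 5.24e-07). ITPRID1, named for a domain that interacts with the inositol trisphosphate receptor, lay at 7.24 to 23.6 CPM in GP with a median of 15.2 and 0.219 to 0.744 CPM in striatum with a median of 0.336 (log2FC 5.30 ± 0.22, FDR = 7.88e-09). XIRP2, an actin-binding protein known from muscle, lay at 14.3 to 38.9 CPM in GP with a median of 23.8 and 0.223 to 1.94 CPM in striatum with a median of 0.466 (log2FC 5.25 ± 0.29, FDR = 3.59e-08). For each of these 4 genes the 8 GP samples lay above the 8 striata. The secretin receptor SCTR lay at 3.30 to 11.5 CPM in GP with a median of 6.38 and 0.0357 to 0.478 CPM in striatum with a median of 0.308 (log2FC 4.43 ± 0.26, FDR = 5.61e-08). DAO, which oxidises D-serine and other D-amino acids, lay at 8.79 to 20.7 CPM in GP with a median of 15.6 and 0.486 to 1.83 CPM in striatum with a median of 1.04 (log2FC 3.95 ± 0.30, FDR = 3.5e-07). These too did not overlap with striatum. The Wnt inhibitor DKK1 lay at 1.93 to 16.9 CPM in GP with a median of 8.46 and 0.414 to 1.25 CPM in striatum with a median of 0.53 (log2FC 3.50 ± 0.25, FDR = 2.18e-07). CDHR1, a cadherin known from photoreceptors (3.58 ± 0.23), and CD44, the receptor for hyaluronan (3.46 ± 0.17), completed the set with SLC17A6 and MYOC. MYOC, which encodes myocilin, lay at 1.09 to 61.2 CPM in GP with a median of 6.75 and 0.139 to 2.17 CPM in striatum with a median of 0.505 (log2FC 3.82 ± 0.33, FDR = 1.18e-06), and its highest value came from Rhesus 6.

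Corpus callosum separated the genes of this set. Against it, 1354 of 14440 genes tested (9.38%) were higher in GP and 544 (3.77%) higher in corpus callosum. Without Rhesus 2, 3 and 4 the counts were 1505 and 428. This comparison shares the GP samples with that against striatum, so its values stand beside the others and are no independent test of them. The 10 named genes higher in GP than in either tissue were PVALB, ITPRID1, SCTR, CTXN3, SLC17A6, KCNJ16, DAO, NEFH, IRX3 and DKK1. KCNJ16, the inward rectifier subunit Kir5.1, lay at 23.1 to 48.8 CPM in GP with a median of 26.6, 1.81 to 3.95 CPM in striatum with a median of 2.45 and 0.561 to 4.57 CPM in corpus callosum with a median of 1.62 (log2FC 3.45 ± 0.13 against striatum and 4.00 ± 0.32 against corpus callosum). IRX3, a factor of the Iroquois family, lay at 5.50 to 18.7 CPM in GP with a median of 7.73, 0.625 to 1.43 CPM in striatum with a median of 0.993 and 0.336 to 2.57 CPM in corpus callosum with a median of 1.05 (3.23 ± 0.19 and 2.93 ± 0.36). CD44, by contrast, was called lower in GP than in corpus callosum (log2FC -1.17 ± 0.14).

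**Figure D2:**
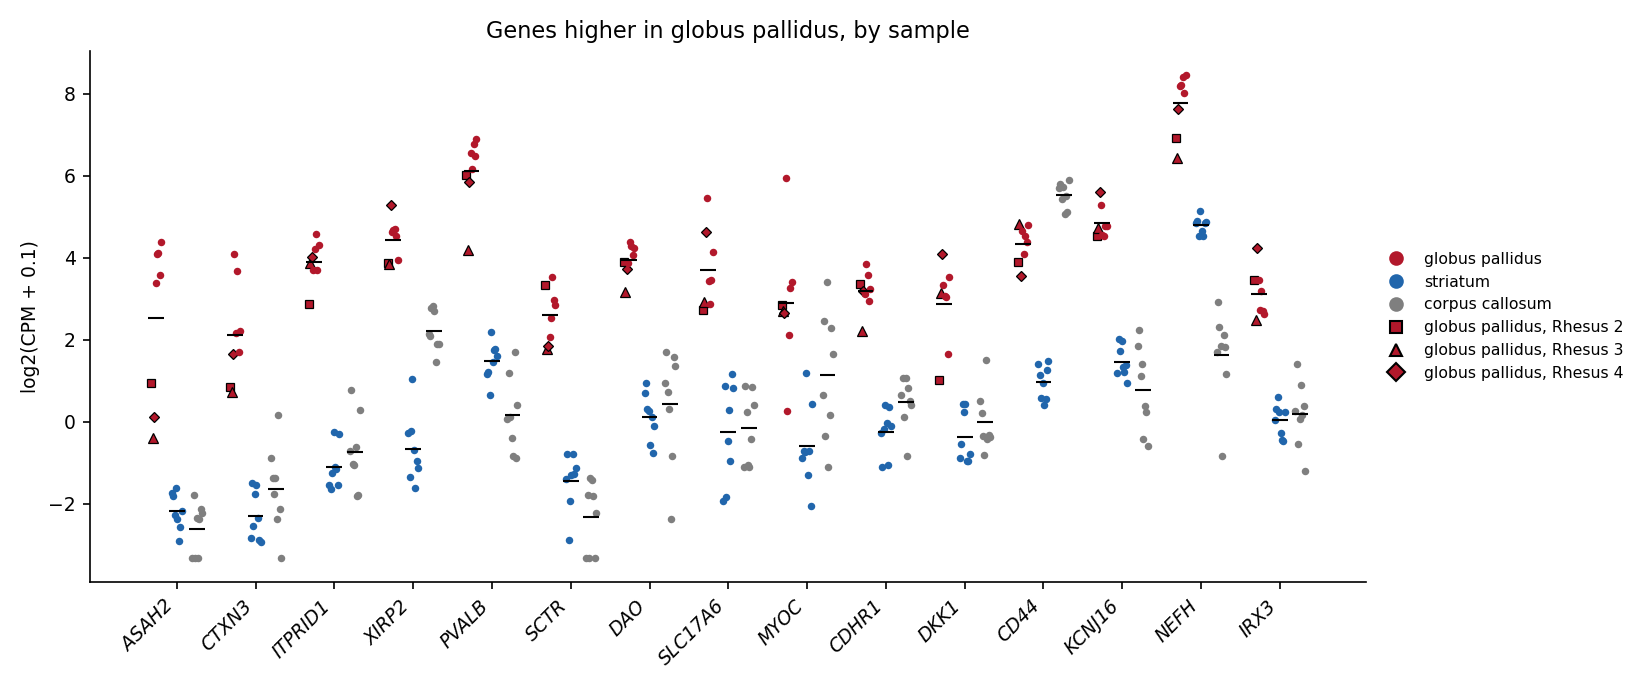
Level of the 15 genes named for being higher in globus pallidus, as log2(CPM + 0.1), in each sample of globus pallidus (red), striatum (blue) and corpus callosum (grey), with bars at the mean of 8 log values and GP symbols for Rhesus 2 (square), 3 (triangle) and 4 (diamond). GP values lie above all striatal values for every gene but MYOC, and CD44 is highest in corpus callosum.

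Some genes of fast firing and of thick axons were higher in GP, while most members of these lists were lower or not called. Of 10 channel genes of fast-spiking and pacemaking neurons, 4 were higher and 1 lower, against 13.1% and 15.7% of all genes. The Kv3 potassium channels, which allow short spikes, included KCNC1 at 50.01 to 156 CPM in GP with a median of 106 and 28.9 to 40.7 CPM in striatum with a median of 31.7 (log2FC 1.61 ± 0.15, FDR = 2.31e-06), KCNC2 (log2FC 1.74 ± 0.21) and KCNC4 (1.44 ± 0.16). Of the sodium channel genes, SCN1A was not called (0.15 ± 0.14). SCN8A was lower, at 2.43 to 27.9 CPM in GP with a median of 24.2 and 45.9 to 154 CPM in striatum with a median of 92.7 (log2FC -2.53 ± 0.37, FDR = 7.7e-05), and its lowest GP values were those of Rhesus 2 and 4. The pacemaker channels HCN2 and HCN4 stayed below a 2-fold difference (-0.38 ± 0.13 and 0.69 ± 0.24).

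The heavy neurofilament gene NEFH lay at 85.8 to 352 CPM in GP with a median of 275, 22.8 to 35.2 CPM in striatum with a median of 28.7 and 0.459 to 7.51 CPM in corpus callosum with a median of 3.45 (log2FC 3.03 ± 0.25, FDR = 6.74e-07). NEFL, the light chain, was higher as well (log2FC 1.13 ± 0.20, FDR = 0.000379), and NEFM, the medium chain, was not called (0.48 ± 0.22). For all 3 chains the lowest GP sample was Rhesus 3, with 85.8 CPM for NEFH. GAP43, a growth cone protein that remains in plastic axons, lay at 33.8 to 208 CPM in GP with a median of 61.7 and 265 to 399 CPM in striatum with a median of 318 (log2FC -1.92 ± 0.25, FDR = 3.1e-05). Of the 8 genes of this group 2 were higher and 2 lower (median log2FC 0.23), against 13.1% and 15.7% of all genes. Of 7 genes of the perineuronal net, the matrix around fast-spiking neurons, 4 were higher and none lower, against 13.1% and 15.7% of all genes. Compared with corpus callosum, 1 of these 7 genes was called higher in GP and 1 lower (median log2FC 0.04). HAPLN4, a link protein of this matrix, lay at 60.9 to 139 CPM in GP with a median of 115 and 15.9 to 48.6 CPM in striatum with a median of 28.9 (log2FC 1.92 ± 0.22, FDR = 1.29e-05). ACAN, its aggrecan core protein, was just past the threshold (1.09 ± 0.17), as was TNC, the gene of tenascin C (1.09 ± 0.17), which lost its call without Rhesus 2, 3 and 4 (1.00). VCAN, the gene of versican, was the fourth (1.48 ± 0.13).

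More receptor genes for GABA and glutamate were lower than higher in GP, and the differences varied by subunit. Of 14 GABA receptor genes, 10 were lower and 1 higher, against 15.7% and 13.1% of all genes. Without Rhesus 2, 3 and 4 these counts were 7 and 2. The extrasynaptic subunit genes GABRD and GABRA4 differed most. GABRD lay at 0.157 to 13.3 CPM in GP with a median of 1.03 and 54.9 to 97.3 CPM in striatum with a median of 63.3 (log2FC -5.39 ± 0.48, FDR = 1.35e-06), GABRA4 at 0.121 to 8.90 CPM in GP with a median of 1.94 and 44.4 to 77.03 CPM in striatum with a median of 57.8 (log2FC -4.76 ± 0.42, FDR = 1.35e-06), and GABRA5 at 19.1 to 69.4 CPM in GP with a median of 27.7 and 314 to 536 CPM in striatum with a median of 407 (log2FC -3.75 ± 0.18, FDR = 1.43e-08). In these 3 the groups did not overlap. For some subunits the call depended on which animals entered. GABRB2, called lower over 8 animals (-1.25 ± 0.44), did not reach a 2-fold difference without Rhesus 2, 3 and 4 (-0.69). GABRA3 also lost its call (-0.97). GABRE, the epsilon subunit, was higher in GP in 7 of 8 animals, at 2.20 to 85.1 CPM in GP with a median of 49.8, 3.70 to 22.1 CPM in striatum with a median of 12.3 and 13.5 to 173 CPM in corpus callosum with a median of 122 (log2FC 1.53 ± 0.28, FDR = 0.000421). Of the 3 tissues it was highest in corpus callosum. Of the GABA-B receptor, GABBR1 was lower (-1.26 ± 0.11) and GABBR2 not called (0.38 ± 0.14).

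Of 24 glutamate receptor genes, 14 were lower in GP and none was higher, against 15.7% and 13.1% of all genes. GRIK3 is also counted among the indirect pathway genes. GRIA1, an AMPA receptor subunit, lay at 13.04 to 83.2 CPM in GP with a median of 33.9 and 348 to 489.6 CPM in striatum with a median of 411 (log2FC -3.67 ± 0.28, FDR = 3.61e-07), and GRIN1, the obligatory NMDA receptor subunit, at 51.1 to 138 CPM in GP with a median of 91.9 and 642 to 951 CPM in striatum with a median of 739.7 (log2FC -3.02 ± 0.14, FDR = 1.16e-08). GRIA4, the AMPA receptor subunit of fast-spiking neurons, was the highest of the list, with 8 of 8 animals higher in GP but less than a 2-fold difference. It lay at 43.2 to 91.9 CPM in GP with a median of 60.9 and 26.5 to 43.9 CPM in striatum with a median of 34.6 (log2FC 0.84 ± 0.10, FDR = 2.18e-05). GRIN2D (0.54 ± 0.18) and GRIK4 (0.74 ± 0.08) were likewise below the fold threshold. Of the metabotropic receptors, GRM4 was lower (-3.57 ± 0.23) and GRM3, known from glia, was near equality (-0.01 ± 0.13).

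**Figure D3:**
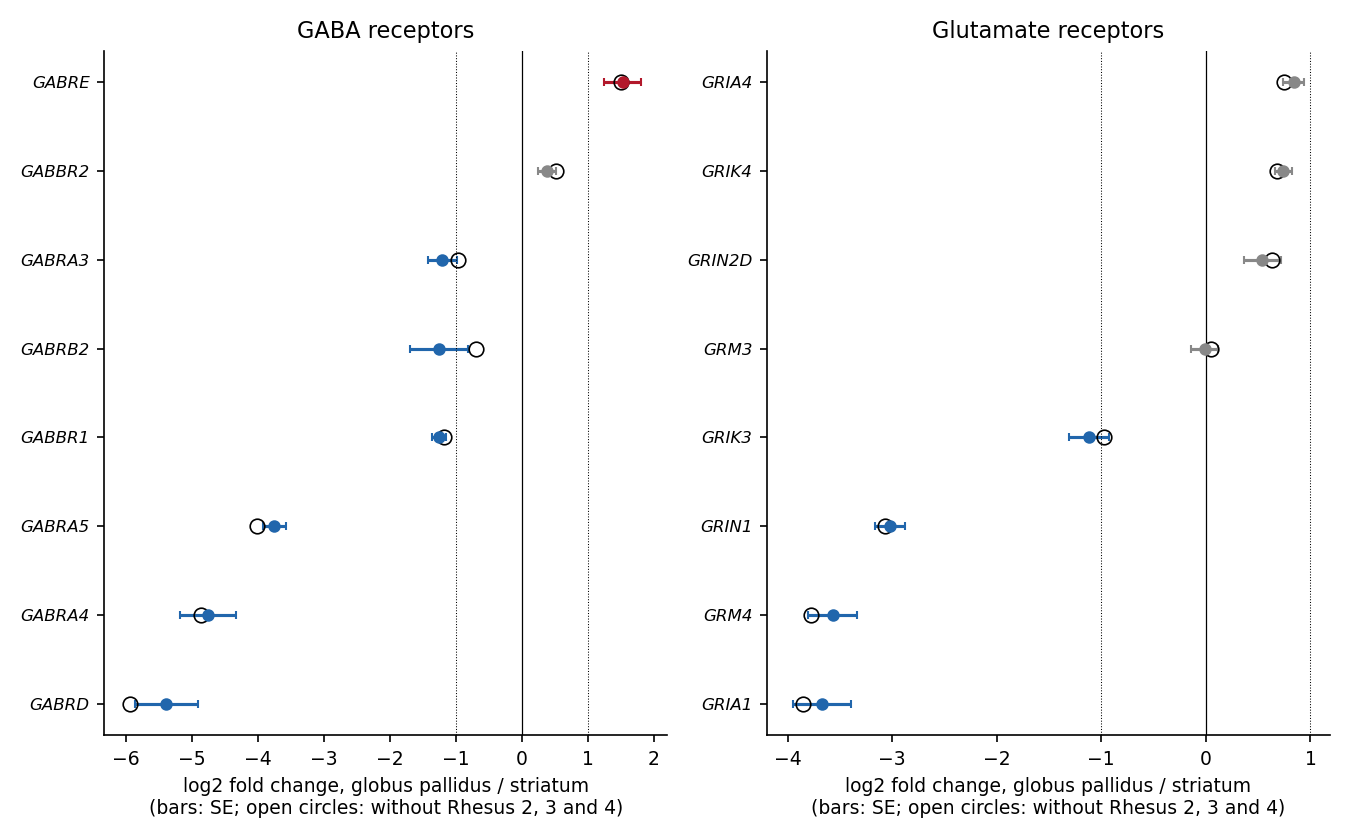
Log2 fold change of globus pallidus over striatum (horizontal axis, filled points, bars SE) for the 8 GABA receptor and 8 glutamate receptor genes named in the text, red where called higher in GP, blue where called lower and grey where not called, with open circles for the fit without Rhesus 2, 3 and 4 and dotted lines at a 2-fold difference. GABRD and GRIA1 are the lowest of each panel, and GABRE is the gene past the dotted line on the right.

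Myelin genes were higher in GP without exception. All 17 tested genes of oligodendrocytes and myelin were called higher, with log2FC from 2.20 to 2.99 (median 2.58). Their summed level was 54009.6 to 109967 CPM in GP, 7418 to 13685 CPM in striatum and 98207 to 130554 CPM in corpus callosum. MBP, the myelin basic protein gene, lay at 26309.8 to 71655 CPM in GP with a median of 31444 and 3789.8 to 6888 CPM in striatum with a median of 4877 (log2FC 2.86 ± 0.14, FDR = 1.76e-08), with the highest value in Rhesus 2. MOBP, which encodes another structural protein of myelin, had the same direction (2.99 ± 0.08). Against corpus callosum none of the 17 was higher in GP and 4 were lower, CLDN11, ERMN, MYRF and FA2H. Precursor genes did not follow as a group. PDGFRA and CSPG4, the receptors that define precursors, were not called (0.17 ± 0.07 and 0.39 ± 0.09), and the 2 of 7 called, BCAS1 (2.34 ± 0.11) and OLIG2 (1.62 ± 0.08), are also expressed in the later lineage. Of the 7 precursor genes, 3 were called when Rhesus 2, 3 and 4 were left out.

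Astrocyte genes diverged. Of 11 tested, 6 were higher, 1 lower and 4 not called, where 13.1% of all genes were higher and 15.7% lower. SLC6A11, the GABA transporter GAT-3 of astrocytes, lay at 28.5 to 258 CPM in GP with a median of 168, 13.1 to 27.03 CPM in striatum with a median of 18.6 and 2.55 to 6.23 CPM in corpus callosum with a median of 3.61 (log2FC 2.90 ± 0.25, FDR = 9.41e-07), and the lowest GP value came from Rhesus 2. GFAP, the intermediate filament of astrocytes, lay at 1618 to 3434 CPM in GP with a median of 2679 and 305 to 660.3 CPM in striatum with a median of 483 (log2FC 2.51 ± 0.11, FDR = 1.16e-08). AQP4, the water channel of their endfeet, was higher (1.28 ± 0.14). The glutamate transporters went the other way. SLC1A2 lay at 18.4 to 193 CPM in GP with a median of 99.8 and 129 to 313 CPM in striatum with a median of 217 (log2FC -1.40 ± 0.33, FDR = 0.00234), with 18.4 and 21.95 CPM in Rhesus 2 and 4, and without Rhesus 2, 3 and 4 it was below the fold threshold (-0.95). SLC1A3 was lower by less than 2-fold (-0.86 ± 0.13). Microglial genes stood close to the threshold, with 5 of 7 called higher, against 13.1% of all genes, and all log2FC between 0.94 and 1.62. TREM2 (1.62 ± 0.11), CSF1R (1.11 ± 0.10) and CX3CR1 (1.04 ± 0.09) were among them, and P2RY12 was not (0.99 ± 0.12). Without Rhesus 3 P2RY12 was called (1.02) and C1QB, a complement gene at the threshold (1.01 ± 0.09), lost its call. C1QB also lost it without Rhesus 2 and 4 and without Rhesus 2, 3 and 4. Of the 7 genes, 4 were called when Rhesus 2, 3 and 4 were left out. None of 8 genes of endothelium and pericytes was called (median log2FC 0.45).

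Iron genes were higher in part. Of 15 genes of iron handling, 6 were higher and none lower (median log2FC 0.77), against 13.1% and 15.7% of all genes. Without Rhesus 2, 3 and 4, 6 were higher and 1 lower. Compared with corpus callosum, 1 of 14 tested was higher in GP and 2 were lower (median log2FC 0.07). Transferrin (TF), which oligodendrocytes express, lay at 1296 to 2424 CPM in GP with a median of 1773, 251 to 406 CPM in striatum with a median of 275 and 2259.9 to 3444 CPM in corpus callosum with a median of 2971 (log2FC 2.53 ± 0.11, FDR = 9.68e-09). The ferritin light chain gene FTL lay at 1004 to 2169 CPM in GP with a median of 1566, 504 to 789 CPM in striatum with a median of 692 and 880.2 to 1437 CPM in corpus callosum with a median of 1116 (log2FC 1.24 ± 0.09, FDR = 2.94e-07), and the heavy chain gene FTH1 was below the fold threshold (0.77 ± 0.08). The exporter SLC40A1 (1.22 ± 0.08), the ferroxidases HEPH (1.38 ± 0.14) and CP (1.23 ± 0.22) and the regulator HFE (1.33 ± 0.11) were higher, and the transferrin receptor TFRC was not called (-0.15 ± 0.08). The level of these transcripts says nothing of the iron itself, which was not measured. Of 9 genes of inherited brain iron accumulation, 3 were higher, FTL, CP and the fatty acid hydroxylase FA2H (2.50 ± 0.09), while PANK2, the pantothenate kinase, was near equality (0.08 ± 0.06). Compared with corpus callosum, 0 of these 9 were higher in GP and 2 were lower. Of 6 genes of familial brain calcification, 1 was called higher, a share near the 13.1% of all genes. This was the phosphate transporter SLC20A2, which was not called against putamen alone. It lay at 128 to 194 CPM in GP with a median of 142 and 49.7 to 71.05 CPM in striatum with a median of 64.5 (log2FC 1.28 ± 0.07, FDR = 3.92e-08).

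Genes of cholesterol synthesis, which myelin needs while it forms, were more often lower than higher. Of 11 genes, 5 were lower in GP and 1 higher, against 15.7% and 13.1% of all genes. SQLE, which makes squalene epoxide, lay at 33.9 to 55.2 CPM in GP with a median of 39.7 and 106 to 163 CPM in striatum with a median of 118 (log2FC -1.52 ± 0.08, FDR = 2.99e-08).

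Against corpus callosum some lists of neuronal genes were higher in GP and others were not. Of 10 channel genes of fast-spiking and pacemaking neurons, 8 were higher in GP (median log2FC 2.84), against 9.38% of all genes. KCNC1 was at 0.821 to 3.85 CPM in corpus callosum, far under each GP sample (log2FC 5.45 ± 0.33), and the pacemaker channels HCN2 (2.86 ± 0.20) and HCN4 (2.96 ± 0.36) were higher too. Of the neurofilament and axon genes, 6 of 8 were higher (median 3.59). GABRB2 (2.19 ± 0.75), GABBR2 (1.65 ± 0.29) and GRIN1 (2.39 ± 0.22) were receptor genes higher in GP than in corpus callosum, among 5 higher and 1 lower of 14 GABA receptor genes and 7 higher and 0 lower of 24 glutamate receptor genes. Among astrocyte genes, SLC6A11 (log2FC 5.17 ± 0.25), SLC7A10 (6.06 ± 0.23), FGFR3, a growth factor receptor (2.33 ± 0.17), and GJB6, the gene of connexin 30 (2.23 ± 0.15), were higher in GP. SLC7A10 lay at 16.9 to 33.3 CPM in GP with a median of 25.02, 9.44 to 13.5 CPM in striatum with a median of 11.7 and 0.0951 to 0.733 CPM in corpus callosum with a median of 0.303. GFAP was not called (log2FC -0.64 ± 0.10). Of 6 cortical excitatory genes 3 were lower in GP and 1 higher (median -1.95), and of 7 immediate early genes 2 were lower and 0 higher (median -0.56).

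**Figure D4:**
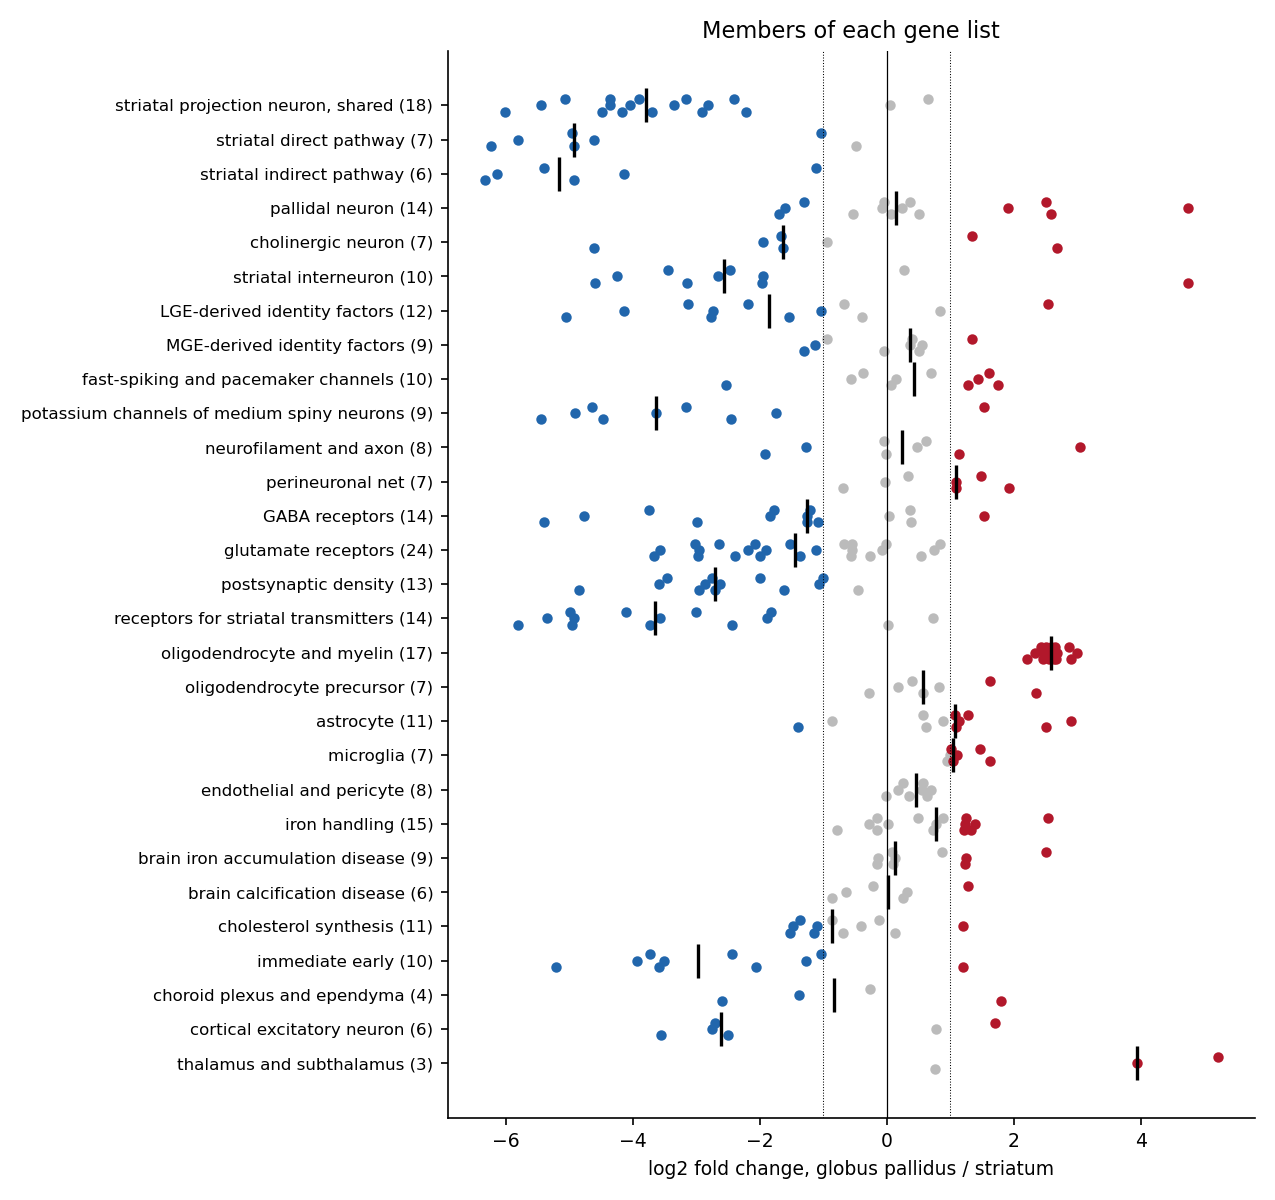
Log2 fold change of globus pallidus over striatum (horizontal axis) of the tested members of 29 gene lists (rows, number tested in parentheses), with 1 point a gene, red where called higher in GP, blue where called lower and grey where not called, black bars at the list medians and dotted lines at a 2-fold difference. The 17 myelin genes lie between 2.20 and 2.99, and the lists of striatal projection neurons lie to the left.

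Against the rest of the brain, genes higher in GP had varied peaks. Of the 2062, 942 (45.7%) had their highest mean among the 16 region groups in corpus callosum, 273 (13.2%) in GP itself and 216 (10.5%) in the pituitary. Of the 2460 genes higher in striatum, 629 (25.6%) peaked in the striatum. Choosing genes by direction kept the striatum from being a peak of the first set and GP from being a peak of the second. The peaks of all genes tested were not counted, so these shares cannot be read as a trait of either set. SDS had its highest mean in GP (46.1 ± 15.2 CPM, SD, n = 8), ahead of the striatum (18.9 ± 5.28 CPM). FTL was highest in GP as well (1579 ± 349 CPM), ahead of corpus callosum (1142 ± 185 CPM), though not called between these tissues (log2FC 0.46 ± 0.11). The microglial genes CX3CR1, P2RY12, C1QB and C1QC and the astrocyte genes SLC7A10 and GJB6 also had their highest mean there, but the next group lay within the spread between animals for several of them. For C1QB the GP had 62.7 ± 23.6 CPM and the substantia nigra 48.8 ± 14.2 CPM. For SLC7A10, an amino acid transporter of astrocytes, the GP had 24.5 ± 5.75 CPM and the ventral tegmental area 22.1 ± 7.00 CPM. PVALB, by contrast, ranked behind the cerebellum and the ventral tegmental area, and SLC17A6 ranked 13th of 16, with a mean of 837 CPM in thalamus and 16.1 CPM in GP.

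**Figure D5:**
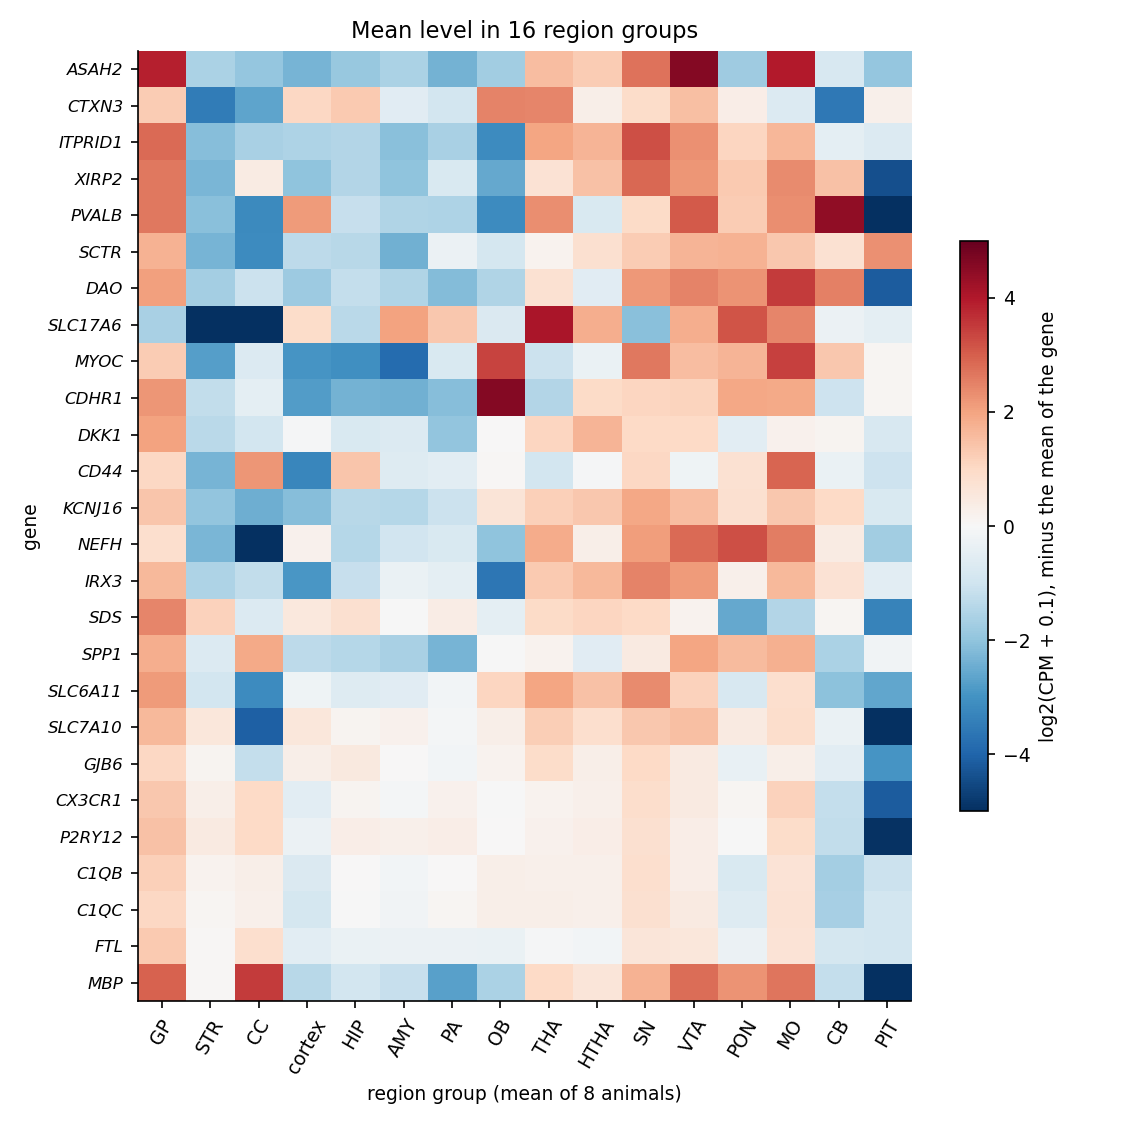
Mean level over 8 animals of 26 genes (rows) in the 16 region groups (columns), as log2(CPM + 0.1) minus the mean of the gene over the groups, on a colour scale that ends at -5 and 5. Columns are globus pallidus (GP), striatum (STR), corpus callosum (CC), cortex, hippocampus (HIP), amygdala (AMY), entorhinal and perirhinal cortex (PA), olfactory bulb (OB), thalamus (THA), hypothalamus (HTHA), substantia nigra (SN), ventral tegmental area (VTA), pons (PON), medulla oblongata (MO), cerebellum (CB) and pituitary (PIT), and SDS and FTL are darkest in the GP column.

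Markers of the diencephalon, the choroid plexus and blood were at low levels in GP, while the cortical list had a higher sum. SLC17A6, the vesicular glutamate transporter of thalamic and subthalamic neurons, lay at 6.52 to 43.9 CPM in GP with a median of 10.7 and 0.16 to 2.12 CPM in striatum with a median of 0.869 (log2FC 3.94 ± 0.50, FDR = 2.46e-05), with Rhesus 6 and 4 the highest in GP (43.9 and 24.6 CPM). FOXB1, a factor of the diencephalon, lay at 1.40 to 3.02 CPM in GP with a median of 2.15 and 0 to 0.162 CPM in striatum with a median of 0.0496 (log2FC 5.21 ± 0.44, FDR = 8.59e-07), while TCF7L2 was below the fold threshold (0.76 ± 0.16). Over the 5 genes of the thalamus and subthalamus list in the table, the summed level was 15.7 to 55.9 CPM in GP and 5.53 to 9.04 CPM in striatum. Of 6 cortical excitatory genes 4 were lower in GP, and SLC17A7 reached 79.8 CPM in the striatum of Rhesus 10 against a striatal median of 8.63 CPM. The 7 genes of the cortical list in the table summed to 146 to 493 CPM in GP and 1172 to 2351 CPM in striatum. One of them is NRGN, which is also counted among the genes of the postsynaptic density. Choroid plexus transcripts were few, with TTR, which encodes transthyretin, at 0.314 to 10.99 CPM in GP with a median of 2.31, 1.92 to 24.3 CPM in striatum with a median of 7.28 and 163 to 2287 CPM in corpus callosum with a median of 591. Of the 4 genes of that list tested, 2 were lower and 1 higher. The 2 blood genes in the table, HBA1 and ALAS2, were at most 0.362 CPM and were not tested. The part of such tissue in any of the differences was not tested.

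The striatum is not uniform, and which sub-region differed least from the GP depended on the genes. Against each sub-region alone, 3503 genes were called for the putamen, 4337 for the caudate nucleus and 4371 for the accumbens nucleus. MBP had a mean of 9964 ± 2213 CPM (SD, n = 8) in putamen, 2866 ± 951 CPM in caudate nucleus and 2506 ± 811 CPM in accumbens nucleus, and 36671 ± 14640.1 CPM in GP. The median log2FC of the 17 myelin genes was 1.70, 3.15 and 3.63 against the 3 in this order. The shared projection neuron genes had the opposite order, with a median of -4.08, -3.84 and -2.97, as had the indirect pathway genes (-5.43, -5.22 and -4.51). PVALB, like the myelin genes, had its highest striatal level in putamen, with 7.59 ± 2.48 CPM against 0.418 ± 0.358 in caudate nucleus and 0.869 ± 0.545 in accumbens nucleus, and the log2FC was 3.27, 7.53 and 6.49. PDYN was lowest in putamen, with 176 ± 156 CPM against 804 ± 195 and 781 ± 122 CPM (log2FC -4.07, -6.68 and -6.63). DRD1 of the same pathway had its lowest mean in accumbens nucleus (529.9 ± 94.9, 521 ± 76.2 and 322 ± 55.2 CPM in the same order). CROCC2 had 15.7 ± 4.31 CPM in accumbens nucleus, 6.06 ± 4.98 in caudate nucleus and 0.243 ± 0.368 in putamen, where it was too low to be tested. SDS and FTL were higher in GP than in putamen by less than 2-fold (log2FC 0.82 and 0.94), and neither was called against putamen alone. Of the other genes named as called, NEFL, ACAN, NGFR, NR4A2, LHX6, EBF1, GABRA3, SLC17A7, SLC7A10 and SLC20A2 were likewise not called against putamen alone. The differences between these folds were not tested.

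No gene passed the threshold for a difference between GP and striatum that varied with age stage or sex. With 4 young and 4 mid-aged animals, 0 of 15683 genes (0.0%) had a difference that varied with age stage in edgeR at FDR below 0.05, and 417 had an unadjusted p below 0.05. DESeq2 called 4 genes, CHRNA1 and AQP1 and 2 without a symbol. CHRNA1, a nicotinic receptor subunit, had a log2FC that was 2.41 ± 0.38 higher in mid-aged animals in that fit (FDR = 2.49e-06). For sex, with 4 males and 4 females, edgeR called 0 genes (0.0%), with 273 below an unadjusted p of 0.05, and DESeq2 called the Y-linked NLGN4Y. Both 417 and 273 are less than a share of 0.05 of the genes tested, the share expected where no gene differs. In simulated counts of 15626 genes with 200 changed 4-fold in the GP of mid-aged animals, edgeR recovered 188, with 12 other calls. The simulated counts had the same dispersion for every gene, no differences between animals and no samples that stood apart. They therefore do not show how many such genes the real data would reveal.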

How the data were processed

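Total RNA depleted of ribosomal RNA was sequenced from stranded libraries. The authors checked reads with FastQC 0.11.4, trimmed samples of poor quality with Trim Galore 0.4.4, and used HISAT2 2.0.5 for alignment to Mmul 8.0.1 and HTSeq 0.6.1 for reads per Ensembl gene; the deposited table holds raw counts of 30807 genes in 408 samples. How HTSeq treated strand and overlaps is not given in the sources used here, so values of genes that overlap, lie antisense or have near-identical copies are uncertain. Symbols came from a reference gene table (17572 genes) or from identifier and name pairs in the study's tables (411); 12824 genes had no symbol, and 52 of the 342 listed genes had no matching row and were not analysed here.

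Counts of the 3 striatal sub-regions were summed within each animal. edgeR 4.0.16 (R 4.3.3) with TMM scaling, its expression filter and the animal as block gave quasi-likelihood tests with Benjamini-Hochberg adjustment over all genes tested. The fits of age stage and sex added an interaction term. A gene was called at FDR below 0.05 and a fold above 2; the interactions had no fold threshold. The block rests on the labels, which give the animal of each sample. Deviations from the group means correlated at 0.29 to 0.583 between GP and striatum of the same animal. In counts simulated for 15620 genes of the GP and striatum comparison with 200 changed 4-fold, edgeR recovered 194 with 0 other calls. Both simulations gave every gene the same dispersion and held no differences between animals, so they are simpler than the real data. GP and each striatal sub-region had 1 sample per animal. Depth limits low genes: the shallowest GP sample had 8901320 counts, so 1 CPM is about 9 counts there.

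Named genes were, by rule, the 12 per direction with the largest log2FC among called genes with a unique symbol, 5 CPM or more on average where higher, and 8 of 8 animals in the same direction, and the 10 higher in GP than in striatum and corpus callosum by the smaller log2FC; other genes were named as members of 30 lists, beside their counts. The comparison and the lists were chosen with earlier results of these data known. Some genes belong to more than 1 list and are counted in each. Alternatives were DESeq2 (1.42.0) and its size factors, other expression filters and fold thresholds, each sub-region alone or as separate samples, no block, and leaving out animals. The deposited transcript assembly and the samples outside the count table were not used here. Reference coordinates and sequences of the build were not used here, and some list members are not reported here.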

Additional observations from a re-analysis of the deposited data

Results flagged for a closer look

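For each gene named in the text, the highest and the lowest of the 8 animals were compared with the nearest of the others, separately in GP and in striatum, by Dixon's criterion at the 95% level. Of 296 groups of 8, 59 held such a sample. For independent, normally distributed values the criterion flags about 1 in 20 groups. CPM were not transformed and genes of 1 sample vary together, so the number flagged cannot be set against that rate. Of these, 36 were the GP of Rhesus 3 with the highest value.

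In the GP of Rhesus 3, the flagged levels in CPM of projection neuron genes and of the striatal genes named for the size of their difference were CA12 75.2, GPR6 16.5, PDYN 83.5, PENK 269, ANO3 241, PDE10A 20.4, C4H6orf141 7.14, PKHD1 5.28, RHAG 1.65, DRD1 63.2, ICAM5 19.6, ADCY5 221, ADORA2A 55.8, ARPP21 925, DRD2 42.9, PDE1B 85.2, PDE7B 50.01, PPP1R1B 405, PTPN5 186, RGS9 20.8 and TAC1 93.3. Those of other receptors, channels, synaptic genes, interneuron genes, factors and immediate early genes were ARC 6.48, CAMK2A 122, CHRM1 19.8, CHRM4 5.61, DLG4 176, DRD3 7.47, EGR2 3.52, GABRA4 8.90, GABRD 13.3, GRM4 12.97, KCNA4 46.6, KCNJ4 9.56, NPY 32.3, PTHLH 3.30 and SIX3 5.17. For PENK the next GP sample was at 42.5 CPM. The log2FC of the called genes named kept their direction without Rhesus 3, and whether this sample held striatal tissue was not tested.

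In the GP of Rhesus 2, levels in CPM stood above the other animals for HFE 27.4, MBP 71655 and MOBP 1076, and below them for GABBR1 201, SCN1A 67.5 and SHANK1 22.3. The first set holds 2 myelin genes, and the second holds genes of neuronal membranes and synapses. In the GP of Rhesus 4, XIRP2 38.9, CROCC2 0.291 and IRX3 18.7 CPM were the highest values. In the GP of Rhesus 6 these were MYOC 61.2, C1QB 111, C1QC 72.1, CHAT 5.17 and NGFR 58.7 CPM, with complement genes and cholinergic genes among them. In the striatum of Rhesus 3, PDE1B 447 CPM was the lowest value. In the striatum of Rhesus 4, ICAM5 199 and GABRD 97.3 CPM were the highest values. In the striatum of Rhesus 6, XIRP2 1.94, C1QB 47.1 and CP 4.11 CPM were the highest values. In the striatum of Rhesus 10, GABBR2 85.5, KCNC2 55.2 and SQLE 163 CPM were the highest values.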

How the results depend on the processing

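Against striatum, 4522 genes were called. Under DESeq2, its size factors, other expression filters, single sub-regions, sub-regions as separate samples and the removal of Rhesus 2 and 4 or of Rhesus 2, 3 and 4, which was chosen after seeing the data, between 3503 (putamen alone) and 5661 were called. A fold above 4 gave 1474 and no fold threshold 10998. Against corpus callosum, 1898 were called, 533 at a fold above 4 and 7485 with no fold threshold. Without the replicate block of the animal, the counts were 4476 and 1820, and GABRB2, NR4A2 and TTR lost their call while P2RY12 gained one. Leaving out 1 animal at a time gave 4408 to 4639 and 1767 to 1975. For the variation of the difference with age stage, DESeq2 called 4 genes, and leaving out 1 animal gave 0 to 1, the 1 being SMOC2 without Rhesus 2. For sex, DESeq2 called 1 gene, and leaving out 1 animal or the block gave 0. With DESeq2's size factors 2036 calls were higher in GP and 2484 in striatum, and with no filter the median log2FC of all genes was -0.12.

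The 27 genes named by rule kept their direction and call under each alternative in which they were tested. Of the genes named from lists, GABRA3 turned to 0.13, SHANK1 to 1.52 and TTR to 1.28 against putamen alone, and SLC17A7 turned to 0.29 against caudate nucleus alone. The causes were not tested, and genes near the 2-fold threshold, such as C1QB and EBF1, lost their call under several alternatives. Leaving out 1 animal ended the call of NEFL (Rhesus 8), SLC7A10, GBX1 and TNC (Rhesus 4), GRIK3 (Rhesus 2), GABRB2 (Rhesus 2 or 4), EBF1 (Rhesus 2, 4 or 10) and C1QB (Rhesus 2, 3, 4 or 6), and P2RY12 was called without Rhesus 3, 7, 10 or 11. Depth limits the genes with few counts in GP, such as CROCC2, whose fold is known only within its counting interval.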

Other observations

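Some genes of striatal projection neurons, though far lower in GP than in striatum, were higher in GP than in corpus callosum. Of 18 shared genes tested, 7 were called higher in GP and 1 lower (median log2FC 0.90), against 9.38% and 3.77% of all genes. PPP1R1B lay at 182 to 405 CPM in GP and 24.96 to 94.1 CPM in corpus callosum (log2FC 1.79 ± 0.19). Without Rhesus 3 the highest GP value was 221 CPM, and the groups still did not overlap. ARPP21 (log2FC 2.85 ± 0.28), PTPN5 (2.20 ± 0.24) and the phosphodiesterase gene PDE7B (2.13 ± 0.18) were also higher in GP than in corpus callosum, while ADCY5 (-0.19 ± 0.11) was not called. STRN was the lower one (-1.27 ± 0.26).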
